A study of Mus musculus with 8 samples.

Results

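Serpins and serine proteases were followed in 4T1, a murine mammary tumor line that forms metastases when implanted in mice. The genes were chosen by name only: every row of the deposited results table whose mouse symbol starts with Serpin, Tmprss, Prss and a digit or Klk and a digit, plus the plasminogen activators Plau and Plat, the urokinase receptor Plaur, matriptase (St14) and its inhibitors Spint1 and Spint2. This rule took 94 of the 23606 genes of the table, of which 41 are serpin genes. The RNA came from 8 libraries of wild-type 4T1 cultures. In the Ctrl group (replicates 1 to 4, n = 4) cells received SKL2001 overnight, a compound used to stabilize β-catenin and so to mimic canonical Wnt signaling. In the Hypo group (replicates 2 to 5, n = 4) they received SKL2001 together with decitabine, a cytidine analog that traps DNA methyltransferases and lowers DNA methylation. SKL2001 was thus present in both groups, no group without it was analysed here, and all values come from 1 cell line grown alone in culture. The comparison asks how the hypomethylated cells differ from control cells under the same Wnt-type stimulus. Whether replicate libraries derive from independent cultures is not stated, so the tests capture only the scatter among these libraries, which may be technical.

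Serine proteases of the trypsin fold cut proteins in the pericellular space, in secretory vesicles and in the circulation, and many are made as zymogens that another protease must cleave. Serpins are suicide inhibitors: the protease cuts an exposed loop of the serpin and is trapped as a covalent complex, although some serpins, such as the collagen chaperone encoded by Serpinh1, inhibit no protease. In carcinoma cells the best known circuits are plasminogen activation, in which urokinase on its receptor makes plasmin, and the matriptase to prostasin cascade of epithelial surfaces, held back by Spint1 and Spint2.

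The libraries held between 27486245 and 39388394 reads assigned to genes, recovered from the normalized counts (reads divided by a size factor of the library). All 8 epithelial markers were tested and abundant, with summed normalized counts of 139922 to 156945 in Ctrl and 129080 to 146709 in Hypo. Sums of markers of other cell types were far below the epithelial sums but higher in Hypo. Of the single genes in these sums, only Lyz2 (21.0 in Ctrl and 15.6 in Hypo) and Tek (2.04 and 1.37) had lower means in Hypo. The fibroblast marker Pdgfra was not low, at 2061 in Ctrl and 2276 in Hypo, and did not pass the test. The summed normalized count of 5 listed immune cell markers was 364 to 669 in Ctrl and 776 to 999.9 in Hypo, that of 6 endothelial markers 35.3 to 66.1 and 135 to 175, and that of 7 fibroblast markers 2232 to 2623 and 2994 to 3678; the defining markers Cd3e, Adgre1, Emcn, Cldn5 and Lum were not in the table, and Thy1 and Dcn were near 0 in Ctrl. Interferon response genes rose in 9 of 10 cases, with summed levels of 2198 to 3192 in Ctrl and 6318 to 7678 in Hypo. Ctrl replicate 3 stood apart in the stress response genes, with a sum of 57592 against 27623 to 35763 in the other Ctrl libraries and 32083 to 41275 in Hypo. The part of these differences in the results below was not tested, and in bulk RNA a change in the number of cells of a type and in the RNA per cell cannot be told apart.

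Promoter sequences are shown for members that rose, for neighbors on 1 chromosome and for an abundant member that did not pass the test, because decitabine lowers the methylation of cytosine, which in mammals lies mostly in the CG dinucleotide. RefSeq gives for the GRCm38.p6 build a window of 250 bases before each gene's start, and 61 of the 94 members had such a window within 100 bases of the start annotated by GENCODE. In the lines below CG is in capitals and each sequence runs 5′ to 3′ on the strand of its gene, up to its RefSeq start, which for Prss42 lies 19 bases past the GENCODE start. The first 3 genes are neighbors on chromosome 9 (Prss42 at chr9:110797935-110798184, plus strand, Prss46 at chr9:110844256-110844505, plus strand, Prss50 at chr9:110857717-110857966, plus strand). The next are Tmprss11f (chr5:86632425-86632674, minus strand) and Klk8 (chr7:43797327-43797576, plus strand), both of which rose, Serpinb9g (chr13:33484540-33484789, plus strand), which rose, and the abundant inhibitor Spint1 (chr2:119237110-119237359, plus strand), which did not pass the test.
Prss42: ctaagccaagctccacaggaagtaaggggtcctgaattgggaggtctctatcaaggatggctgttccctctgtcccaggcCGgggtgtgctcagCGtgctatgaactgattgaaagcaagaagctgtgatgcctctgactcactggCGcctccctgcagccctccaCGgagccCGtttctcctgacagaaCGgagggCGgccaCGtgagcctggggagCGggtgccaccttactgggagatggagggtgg
Prss46: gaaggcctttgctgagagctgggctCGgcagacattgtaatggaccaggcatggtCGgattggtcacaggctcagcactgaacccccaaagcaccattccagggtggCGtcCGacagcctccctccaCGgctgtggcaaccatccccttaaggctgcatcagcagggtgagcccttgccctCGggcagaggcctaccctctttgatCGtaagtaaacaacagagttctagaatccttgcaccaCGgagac
Prss50: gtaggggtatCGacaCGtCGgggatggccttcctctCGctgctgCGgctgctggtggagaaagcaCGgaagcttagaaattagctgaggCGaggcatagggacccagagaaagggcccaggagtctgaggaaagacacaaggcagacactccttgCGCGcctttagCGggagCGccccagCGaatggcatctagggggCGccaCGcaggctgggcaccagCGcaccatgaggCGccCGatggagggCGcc
Tmprss11f: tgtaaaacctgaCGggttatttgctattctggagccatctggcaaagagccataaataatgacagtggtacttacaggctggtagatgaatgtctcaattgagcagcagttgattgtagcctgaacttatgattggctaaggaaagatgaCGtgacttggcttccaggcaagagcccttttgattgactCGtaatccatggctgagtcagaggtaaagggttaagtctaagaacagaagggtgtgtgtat
Klk8: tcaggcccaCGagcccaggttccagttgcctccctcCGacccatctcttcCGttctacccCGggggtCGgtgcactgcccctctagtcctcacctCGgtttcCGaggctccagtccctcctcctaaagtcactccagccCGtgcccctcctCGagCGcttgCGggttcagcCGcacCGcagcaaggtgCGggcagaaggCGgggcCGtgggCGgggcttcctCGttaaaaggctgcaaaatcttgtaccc
Serpinb9g: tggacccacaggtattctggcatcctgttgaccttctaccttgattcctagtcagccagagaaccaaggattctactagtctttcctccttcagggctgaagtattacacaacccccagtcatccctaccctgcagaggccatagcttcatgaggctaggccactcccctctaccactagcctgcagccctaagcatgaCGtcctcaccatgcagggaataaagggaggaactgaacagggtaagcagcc
Spint1: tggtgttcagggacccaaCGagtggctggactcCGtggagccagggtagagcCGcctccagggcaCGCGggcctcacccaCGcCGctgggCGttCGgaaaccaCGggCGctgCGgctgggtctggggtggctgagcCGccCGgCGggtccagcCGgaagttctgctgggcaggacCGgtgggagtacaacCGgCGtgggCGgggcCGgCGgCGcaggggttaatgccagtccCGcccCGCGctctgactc
The number of CG per window was 9 in Prss42, 8 in Prss46, 18 in Prss50, 3 in Tmprss11f, 18 in Klk8, 1 in Serpinb9g and 26 in Spint1. Over all 32851 RefSeq windows the median was 6 (quartiles 2 and 16), and 92.1% held at least 1 CG. The 9 members that rose and had a window held a median of 7 CG (1 to 18), the 7 abundant members that did not pass held 11 (3 to 26), the 16 others that did not pass held 2.5 (0 to 15), and the 28 members under the minimum for testing held 3 (0 to 18). CG-poor and CG-rich windows were thus both found among the members that rose. Of the other letters searched on both strands, TATAAA was in 12.4% of all windows and in none of the 9 members that rose, and the core of the interferon-stimulated response element was in 2.98% of all windows and in none of the 9. TGANTCA was in 6.75% of all windows and in 10 of the 61 member windows, of which 2 belonged to the 9 members that rose (Prss42 and Tmprss11f) and 2 to the 7 abundant members that did not pass. These are matches of letters in 1 window, and no methylation was measured in these files.

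Among the 94 members 52 reached a mean of 10 normalized counts and were tested, and 42 lay under that minimum. The test was limma on the deposited variance-stabilized values, a log2-like scale that compresses low counts, fitted across all 15746 genes that passed the minimum, and a gene was called at an adjusted p below 0.05. In Hypo 15 of the 52 tested members rose (28.8%), 2 fell and 35 did not pass. Over all tested genes 14.1% rose and 8.75% fell, against 28.8% and 3.85% of the tested members. Because 8 of the 52 passed the minimum although their Ctrl mean was below 10, and 5 of these rose, the count was also taken over the 44 members with a Ctrl mean of at least 10. Of these 44, 10 rose (22.7%, against 11% of all tested genes with such a Ctrl mean) and 2 fell. With no minimum, 28 of all 94 members rose (29.8%, against 14.3% of 23215 genes) and 2 fell (against 5.9%). Leaving out Ctrl replicate 3, whose stress genes stood apart, together with Hypo replicate 4, whose stress gene sum of 34356 lay within its group, gave 21 that rose and 5 that fell, with all 17 calls kept, while the counts over all genes came to 2835 and 2050. In the paragraphs below the values of single libraries stand in the order of their replicate numbers, 1 to 4 for Ctrl and 2 to 5 for Hypo. The counts of single roles and gene lists below stand beside the same 14.1% and 8.75% of all tested genes. The median transformed difference was 0.12 over the 52 tested members and 0.0035 over all tested genes.

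**Figure D1:**
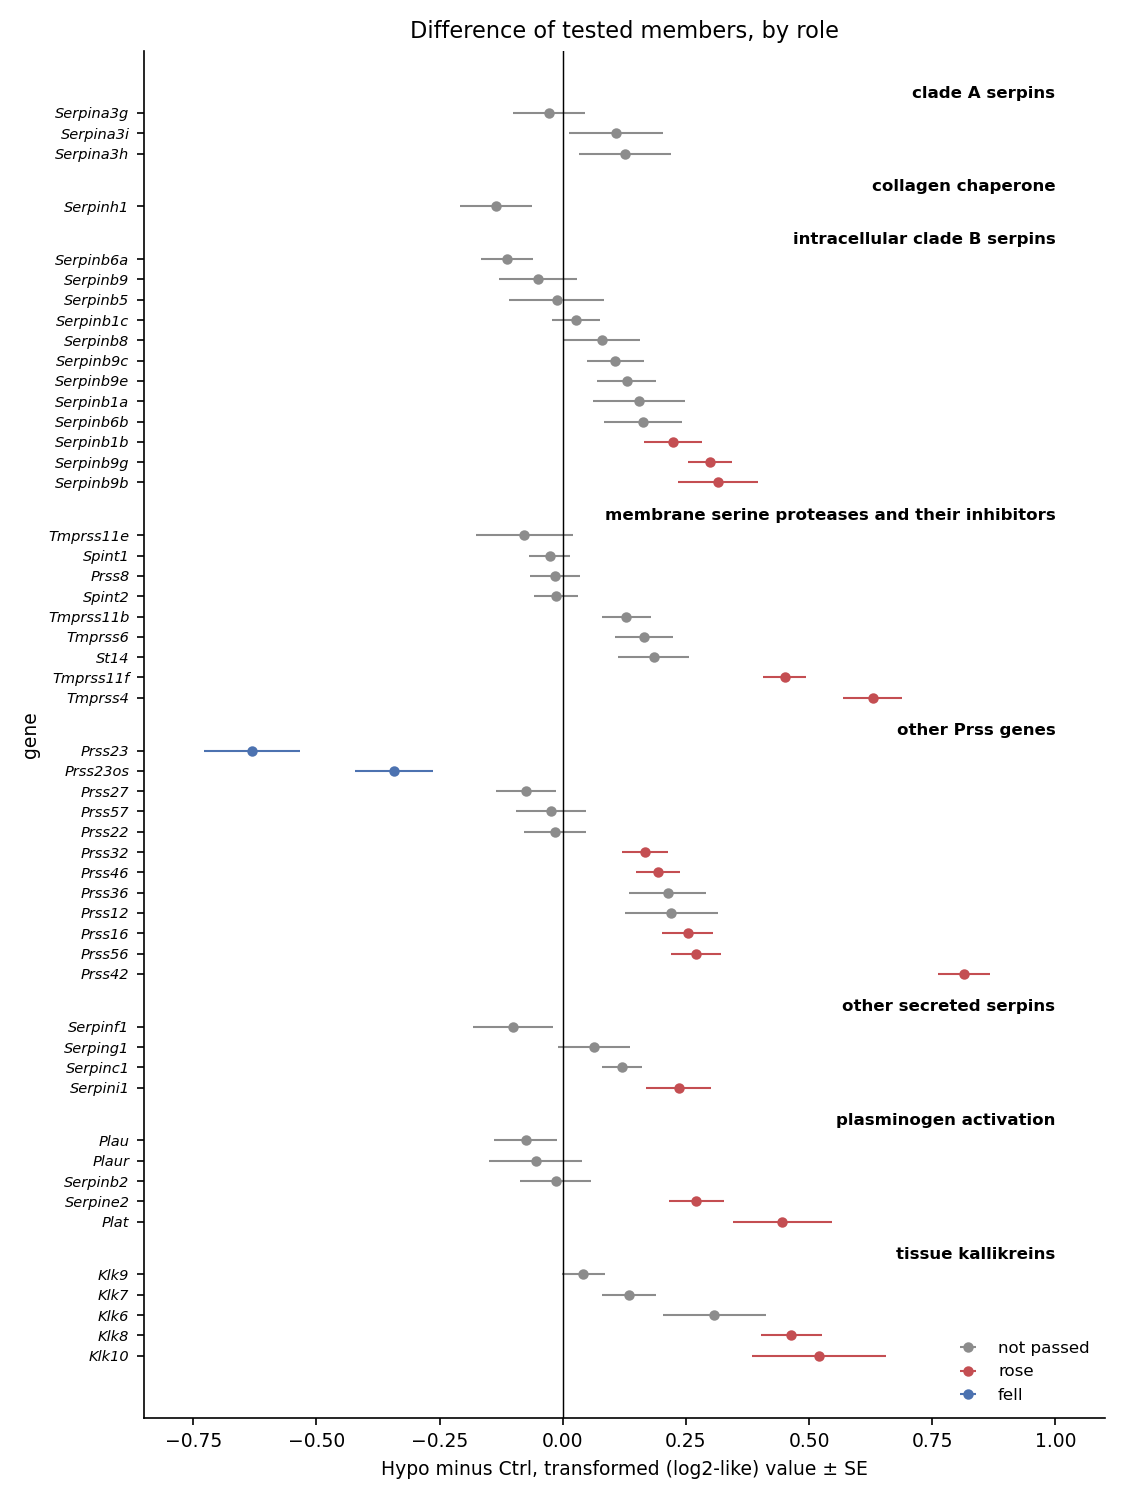
Difference between Hypo and Ctrl on the transformed, log2-like scale (x axis) for 51 of the 52 tested members (y axis), grouped by role; points are limma estimates, bars ± 1 SE, n = 4 libraries per group. Red points rose, blue points fell and grey points did not pass an adjusted p of 0.05; Prss42 lies farthest to the right (0.81 ± 0.05) and Prss23 farthest to the left (-0.63 ± 0.10).

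The share of members that rose differed with their level. Of 15 members whose mean reached 1000, 1 rose (Plat) and 1 fell (Prss23), against 5.79% of all genes at that level that rose. From 100 to 1000, 6 of 13 members rose, against 15.8% of all genes. From 10 to 100, 8 of 24 members rose, against 25.1% of all genes, but 5 of these 8 passed the minimum only through their Hypo values. With a Ctrl mean of at least 10 as well, 3 of 16 members in this range rose, against 15.2% of all genes. The gap between members and all genes was widest in the middle range and narrowest among the most abundant genes.

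**Figure D2:**
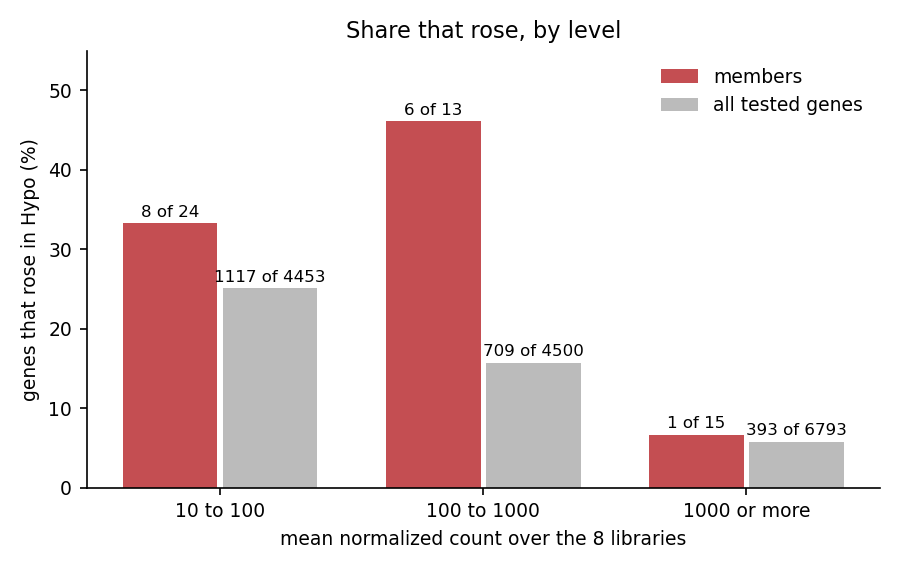
Share of genes that rose in Hypo (y axis, %) by mean normalized count over the 8 libraries (x axis) for the tested members (red) and all tested genes (grey), with the counts above each bar. The middle range shows the widest gap, 6 of 13 members against 709 of 4500 genes, and 5 of the 8 members that rose in the lowest range passed the minimum only through their Hypo values.

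Groups that did not overlap were counted apart from the test. In 16 of the 52 tested members every Hypo library lay above every Ctrl library (30.8%, against 15.4% of all tested genes), and in 2 every one lay below (3.85%, against 10.3%). Over all 94 members these counts were 27 above (28.7%, against 15.8% of the genes in both tables) and 3 below (3.19%, against 7.31%).

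Plasminogen activation changed in 2 of its 6 tested members, both upward, while urokinase and its receptor did not pass the test. Plat, the tissue-type plasminogen activator (chromosome 8, 22757727 to 22782844 of GRCm38 in the GENCODE annotation, as for all positions of genes here), had normalized counts of 845, 1123, 1309.5 and 967 in Ctrl and 1604, 1518, 1662 and 1311 in Hypo. The 4 Hypo libraries were all higher than the Ctrl libraries, with Hypo replicate 5 and Ctrl replicate 3 almost level. Its mean was 1061 ± 201 in Ctrl and 1524 ± 154 in Hypo (SD, n = 4 each), 1.44-fold higher in Hypo, with a transformed difference of 0.45 ± 0.10 (SE) and limma adjusted p = 0.007.

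Serpine2, protease nexin-1, a serpin that inhibits thrombin and the plasminogen activators (chromosome 1, 79794197 to 79861180), had 441, 495, 428 and 519 in Ctrl and 614, 636, 621 and 583 in Hypo. The 4 Hypo values were close together and above every Ctrl value. The mean went from 471 ± 43.3 to 613 ± 22.0 (SD, n = 4 each), a transformed difference of 0.27 ± 0.06 (SE, limma adjusted p = 0.0045). This was a 1.30-fold rise.

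Plau, which encodes urokinase, had 3293, 3129.9, 3819.9 and 3237 in Ctrl and 3304, 3063, 3372 and 2982 in Hypo. Its groups overlapped, with Ctrl replicate 3 the highest of all libraries, and the difference was -0.08 ± 0.06 (SE, limma adjusted p = 0.43). Plaur, the urokinase receptor, had 2857, 2875, 2542 and 3258 in Ctrl and 2680.2, 2464, 2537 and 3432 in Hypo, with Ctrl replicate 4 and Hypo replicate 5 the highest of their groups and wide overlap (difference -0.06 ± 0.09, limma adjusted p = 0.72).

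Serpinb2, an inhibitor of urokinase, was lower in level with 222 ± 18.8 in Ctrl and 219 ± 43.0 in Hypo (SD, n = 4 each; limma adjusted p = 0.91), and Serpinf2, the plasmin inhibitor, lay under the minimum. Per kilobase of exon, the normalized count was 1424 in Ctrl and 1344 in Hypo for Plau, 1102 in Ctrl and 1062 in Hypo for Plaur and 170.03 in Ctrl and 244 in Hypo for Plat. Per kilobase, urokinase RNA therefore remained several times above that of Plat in both groups. Exon length, here and below, joins all annotated exons of a gene, so ranks per kilobase depend on the annotation.

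**Figure D3:**
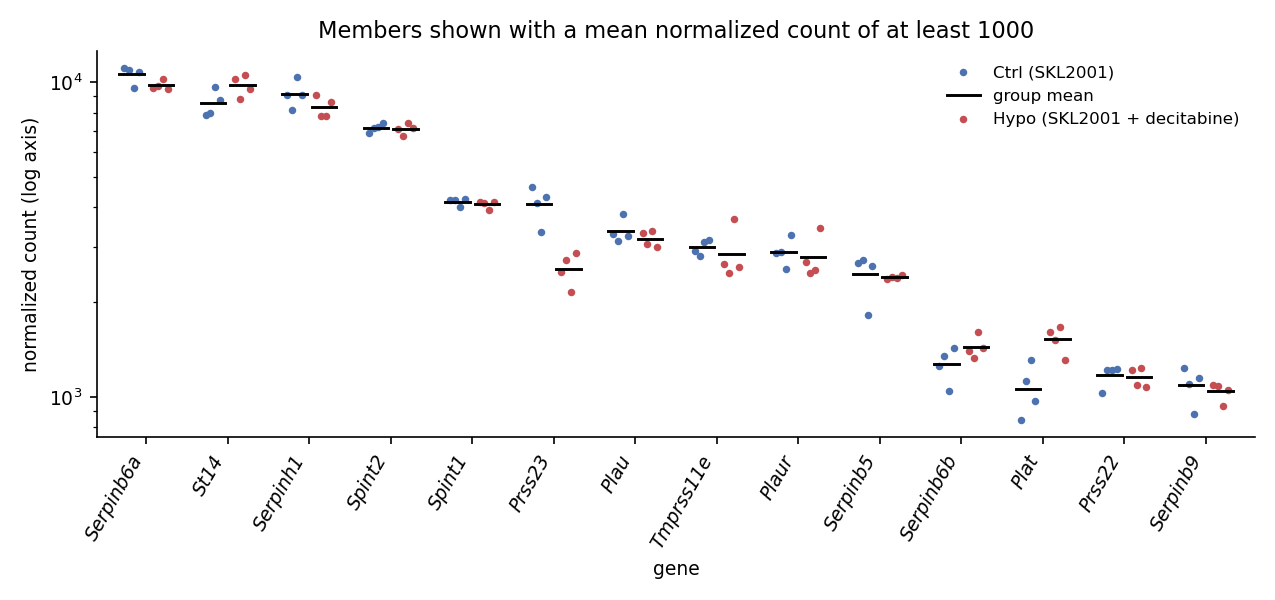
Normalized counts (y axis, log scale) of 14 of the 15 members whose mean reached 1000 (x axis, in order of their mean) in the 4 Ctrl libraries (blue) and the 4 Hypo libraries (red), with the group means as black lines. Only Prss23 and Plat have groups that do not overlap; Prss23 lies lower in Hypo and Plat higher.

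The membrane serine proteases and their inhibitors showed 2 rises among 9 tested members, both in type II transmembrane proteases with a mean below 100, a range in which 25.1% of all tested genes rose, while none of St14, Prss8, Spint1 and Spint2 passed. Tmprss4, a transmembrane protease found in several carcinomas (chromosome 9, 45172726 to 45204092), had 6.15, 9.56, 13.6 and 8.55 in Ctrl and 71.7, 83.8, 73.5 and 48.2 in Hypo. Every Hypo library was far above the highest Ctrl library, and the gene reached the minimum for testing only through its Hypo values. Its mean was 9.46 ± 3.10 in Ctrl and 69.3 ± 15.0 in Hypo (SD, n = 4 each), 7.32-fold higher, with a transformed difference of 0.63 ± 0.06 (SE, limma adjusted p = 1.3e-05). Its locus overlaps 2 other annotated genes, Gm17099 and BC049352, and it is not stated whether reads were counted by strand.

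Tmprss11f, a member of the airway trypsin-like group of transmembrane proteases, had 54.3, 53.9, 52.5 and 50.4 in Ctrl and 128, 115, 129 and 128 in Hypo. Both groups were tight and far apart. The mean went from 52.8 ± 1.74 to 125 ± 6.51 (SD, n = 4 each), with a transformed difference of 0.45 ± 0.04 (SE, limma adjusted p = 1.6e-05). It lies in a row of 6 Tmprss11 members on chromosome 5 (86302217 to 86745815), of which 3 were tested and 1 rose. In 3 of the 6 every Hypo library lay above every Ctrl library, as in 15.8% of the genes in both tables.

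Its neighbors differed in level and in response. Tmprss11g lay under the minimum, with 3.07, 1.74, 0.906 and 1.71 in Ctrl and 12.7, 14.0, 6.43 and 15.7 in Hypo. Tmprss11b had 19.5, 20.9, 19.9 and 11.1 in Ctrl and 27.8, 34.9, 22.0 and 26.6 in Hypo and did not pass (limma adjusted p = 0.088). Both therefore had groups that did not overlap, with all Hypo libraries higher. Tmprss11e, the abundant gene of the row, had 2898, 2803, 3092 and 3148 in Ctrl and 2636, 2481, 3681 and 2585 in Hypo. Its groups overlapped, Hypo replicate 4 being the highest library and the other 3 Hypo libraries the lowest (difference -0.08 ± 0.10, limma adjusted p = 0.61). Without Hypo replicate 4 the difference was −0.20 and passed (adjusted p = 0.022).

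St14, matriptase, had 7883, 7953, 9657 and 8799 in Ctrl and 10189.7, 8841, 10544 and 9497 in Hypo. Hypo replicates 2 and 4 exceeded every Ctrl library and the other Hypo libraries did not, and the difference of 0.18 ± 0.07 (SE) did not pass (limma adjusted p = 0.088). It passed without Ctrl replicate 3 (0.24, adjusted p = 0.010) and, with all libraries, under quantile normalization (adjusted p = 0.031) and with array weights (0.026). Spint1, the Kunitz-type inhibitor that binds matriptase, had 4207, 4229, 4001 and 4241 in Ctrl and 4164, 4126, 3917 and 4147 in Hypo. Its 8 values spanned a narrow range in which the groups overlapped (difference -0.03 ± 0.04, limma adjusted p = 0.70).

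Spint2, the second Kunitz-type inhibitor of this cascade, had 6873, 7165, 7211 and 7426 in Ctrl and 7098, 6742, 7419 and 7138 in Hypo, with full overlap (difference -0.01 ± 0.04, limma adjusted p = 0.86). Prss8, prostasin, the membrane-anchored protease that matriptase activates, had 703 ± 40.0 in Ctrl and 692 ± 20.8 in Hypo (SD, n = 4 each; limma adjusted p = 0.86). Per kilobase of exon the normalized counts were 1123 in Ctrl and 1279 in Hypo for St14 and 379 and 374 for Prss8. They were 1507 in Ctrl and 1478 in Hypo for Spint1 and 1574 and 1558 for Spint2. By this measure both inhibitors exceeded St14 in each group. Without division by length the order was the reverse, with St14 at 8573 in Ctrl and 9768 in Hypo. Spint1 was then at 4170 and 4089 and Spint2 at 7169 and 7099. Tmprss6, matriptase-2, which cleaves hemojuvelin in liver, was low, with 10.4 ± 3.97 in Ctrl and 21.2 ± 7.65 in Hypo (limma adjusted p = 0.062).

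Of the 9 untested membrane members, Tmprss3 and Tmprss7 also had groups that did not overlap. Tmprss7 had 1.02, 0, 0.906 and 2.56 in Ctrl and 8.10, 9.60, 4.59 and 6.89 in Hypo, and Tmprss3, known for its role in hearing, had 0, 0.869, 0.906 and 0.855 in Ctrl and 3.47, 8.73, 5.51 and 3.93 in Hypo. Both were close to absent in Ctrl and low in Hypo. In the fit with no minimum, the limma adjusted p was 0.0019 for Tmprss11g, 0.0068 for Tmprss7 and 0.0098 for Tmprss3. These genes were named for Hypo values all above their Ctrl values, so these p-values are no separate support. Tmprss2, which primes several viral envelope proteins, was at 2.95 ± 1.07 in Ctrl and 7.83 ± 3.01 in Hypo with overlapping groups.

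The tissue kallikreins are secreted proteases encoded in a row on chromosome 7, of which 11 were members (43690418 to 44202352), and 2 of the 5 tested rose. Of the 11, 6 lay under the minimum for testing. Only Klk8 had groups that did not overlap, with every Hypo library above every Ctrl library, as in 15.8% of the genes in both tables. Klk8, neuropsin, a protease of skin and brain, had 416, 443, 453 and 452 in Ctrl and 718, 679, 604 and 781 in Hypo. The Ctrl libraries were tightly grouped and every Hypo library was higher. The mean was 441 ± 17.3 in Ctrl and 696 ± 74.0 in Hypo (SD, n = 4 each), 1.58-fold higher, with a transformed difference of 0.46 ± 0.06 (SE, limma adjusted p = 2.1e-04).

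Klk10, a further secreted member of this family, had 783, 589, 495 and 714 in Ctrl and 918, 1089.7, 767 and 1371 in Hypo. Hypo replicate 4 lay just under Ctrl replicate 1, so the groups overlapped, although the other 3 Hypo libraries were the highest of the 8. The mean was 645 ± 128 in Ctrl and 1036 ± 259 in Hypo, 1.61-fold higher, with a transformed difference of 0.52 ± 0.14 (SE, limma adjusted p = 0.016), and without Hypo replicate 3 the adjusted p was 0.051. Both Klk8 and Klk10 overlap the transcript 2310002F09Rik on the other strand.

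Klk6, neurosin, had 51.2, 49.5, 15.4 and 28.2 in Ctrl and 98.3, 76.0, 36.7 and 83.6 in Hypo. Ctrl replicate 3 and Hypo replicate 4 were the lowest of their groups, the groups overlapped, and the difference of 0.31 ± 0.10 (SE) missed the threshold at limma adjusted p = 0.053. With no minimum it passed (limma adjusted p = 0.046). Klk7, a protease of the outer skin, and Klk9 did not pass, with limma adjusted p of 0.097 and 0.54. Klk1b3 was at 0 in all Ctrl libraries and had 15 reads over the 4 Hypo libraries, but members of the Klk1b family are so alike that reads may be shared among them.

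The other Prss genes had the most calls of any role, 5 rises and 2 falls among 12 tested. Among the 5 that rose, Prss42 and Prss56 reached the minimum for testing only through their Hypo values. The largest difference of all members was in a cluster of testis serine proteases on chromosome 9. Prss42 (chromosome 9, 110798166 to 110803754), which encodes a protease of the mouse testis, had 3.07, 8.69, 3.62 and 2.56 in Ctrl and 70.6, 74.2, 94.6 and 72.8 in Hypo. It was barely detected in Ctrl and clearly present in every Hypo library. The counts rest on 20 reads over the 4 Ctrl libraries and 323 over the 4 Hypo libraries, the mean was 4.49 ± 2.84 in Ctrl and 78.0 ± 11.1 in Hypo (SD, n = 4 each), 17.4-fold higher, and the transformed difference was 0.81 ± 0.05 (SE, limma adjusted p = 5.6e-07).

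Prss46, in the same cluster (chromosome 9, 110844506 to 110856522), was already expressed in Ctrl, with 42.0, 43.5, 39.8 and 47.9 in Ctrl and 71.7, 71.6, 58.8 and 67.9 in Hypo. All Hypo libraries were higher, but by less than in Prss42. The mean was 43.3 ± 3.39 in Ctrl and 67.5 ± 6.08 in Hypo, 1.56-fold higher, with a transformed difference of 0.19 ± 0.04 (SE, limma adjusted p = 0.0084), and this call was lost under quantile normalization (adjusted p = 0.34).

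The remaining neighbors lay under the minimum. Prss44 had 1.02, 0, 0.906 and 0 in Ctrl and 13.9, 22.7, 10.1 and 14.8 in Hypo, and Prss50, a protease-like gene of the testis, had 3.07, 0.869, 0.906 and 5.13 in Ctrl and 17.4, 16.6, 11.9 and 16.7 in Hypo. All 4 genes of this cluster of 66.5 kb thus had every Hypo library above every Ctrl library, as did 15.8% of the genes in both tables. With no minimum, the limma adjusted p was 8.2e-05 for Prss44 and 7.0e-04 for Prss50. All 4 genes were named for groups that did not overlap, so neither the lack of overlap nor these p-values are separate support. Prss44 rests on 2 reads in all Ctrl libraries together and 64 in Hypo, so no fold is given. Per kilobase of exon, Prss42 had a normalized count of 2.83 in Ctrl and 49.3 in Hypo and Prss46 32.2 in Ctrl and 50.1 in Hypo, so that the pair, far apart in Ctrl, came to nearly the same level in Hypo.

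**Figure D4:**
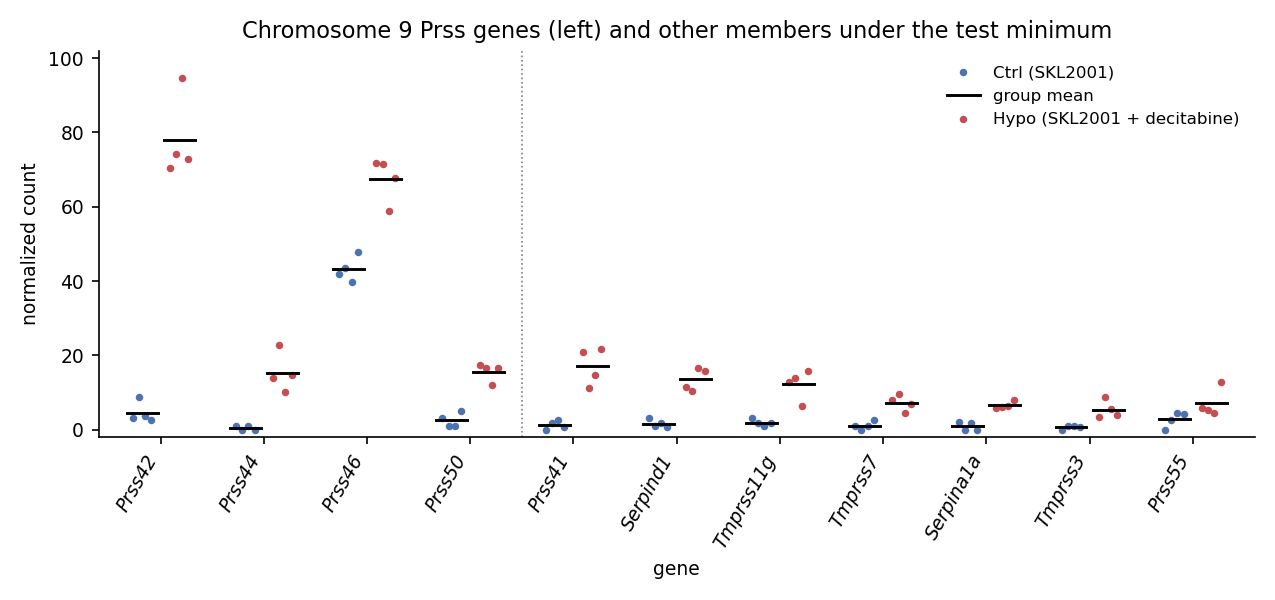
Normalized counts (y axis, linear) in the 4 Ctrl libraries (blue) and the 4 Hypo libraries (red), with group means as black lines, for the 4 Prss genes of the chromosome 9 cluster (left of the dotted line) and 7 further members under the minimum for testing (right). The 7 on the right were chosen for a Hypo mean of at least 5 and for Hypo values all above the Ctrl values, a choice that also named Prss44 and Prss50. Prss42 and Prss46 were named as called members without overlap. The lack of overlap on both sides was thus set by how the genes were named. In each of the 4 cluster genes every Hypo library lies above every Ctrl library, and Prss42 reaches 70.6 to 94.6 in Hypo.

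A second cluster, on chromosome 17, holds Prss41, Prss32, Prss22 and Prss27. Prss41, also a testis serine protease, had 0, 1.74, 2.72 and 0.855 in Ctrl and 20.8, 11.4, 14.7 and 21.6 in Hypo and was called only with no minimum (limma adjusted p = 2.4e-04). Prss41 was named for Hypo values all above its Ctrl values, so this p-value is no separate support. Prss32, whose annotated span overlaps that of Prss41 on the other strand, had 75.8, 73.0, 62.5 and 64.1 in Ctrl and 99.5, 96.0, 85.4 and 98.4 in Hypo. Its groups did not overlap, and the difference was 0.17 ± 0.05 (SE, 1.38-fold, limma adjusted p = 0.023). This call was lost when Ctrl replicate 4 (adjusted p = 0.071) or either of Hypo replicates 2 and 3 (0.062 each) was left out, under quantile normalization (0.66) and with the replicate block (0.14).

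Prss22, a tryptase-like gene and the abundant one of that cluster, had 1029.8, 1214, 1213 and 1224 in Ctrl and 1220.3, 1089.7, 1232 and 1075 in Hypo. The groups overlapped, and the difference was -0.02 ± 0.06 (limma adjusted p = 0.89). Prss27 did not pass either (limma adjusted p = 0.42). Of the 3 neighbors tested, Prss32 alone was called.

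Prss56, a protease needed for normal eye growth, had 8.20, 6.95, 8.15 and 7.69 in Ctrl and 35.9, 22.7, 16.5 and 26.6 in Hypo. Ctrl was tight and low, and Hypo was spread but higher throughout. The mean was 7.75 ± 0.577 in Ctrl and 25.4 ± 8.10 in Hypo, 3.28-fold higher, with a transformed difference of 0.27 ± 0.05 (SE, limma adjusted p = 0.0024). Prss16, a protease known from the thymic cortex, had 448, 439, 469 and 431 in Ctrl and 582, 614, 574 and 532 in Hypo. Its groups were well apart, with 1.29-fold more in Hypo (difference 0.25 ± 0.05, limma adjusted p = 0.0037).

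Prss23, a secreted serine protease and the most abundant gene of this role per kilobase in Ctrl, was the only coding member that fell. It had 4638, 4135, 3335 and 4321 in Ctrl and 2485, 2717, 2153 and 2864 in Hypo. Every Hypo library lay below every Ctrl library, and Ctrl replicate 3 was the lowest of its group. The mean was 4107 ± 555 in Ctrl and 2555 ± 310.1 in Hypo (SD, n = 4 each), 1.61-fold higher in Ctrl, with a transformed difference of -0.63 ± 0.10 (SE, limma adjusted p = 6.1e-04).

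Prss23os, a non-coding transcript on the opposite strand within Prss23, fell too, with 159, 156, 118 and 93.2 in Ctrl and 75.2, 87.3, 53.3 and 67.9 in Hypo. The groups did not overlap (difference -0.34 ± 0.08, limma adjusted p = 0.0081). Since the files do not show whether counting used the strand, these overlapping genes may share reads, and whether they fell independently was not tested. Prss12, neurotrypsin, which cleaves agrin at synapses, and Prss36 had differences of 0.22 ± 0.09 and 0.21 ± 0.08 (SE) and did not pass (limma adjusted p = 0.11 and 0.072).

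**Figure D5:**
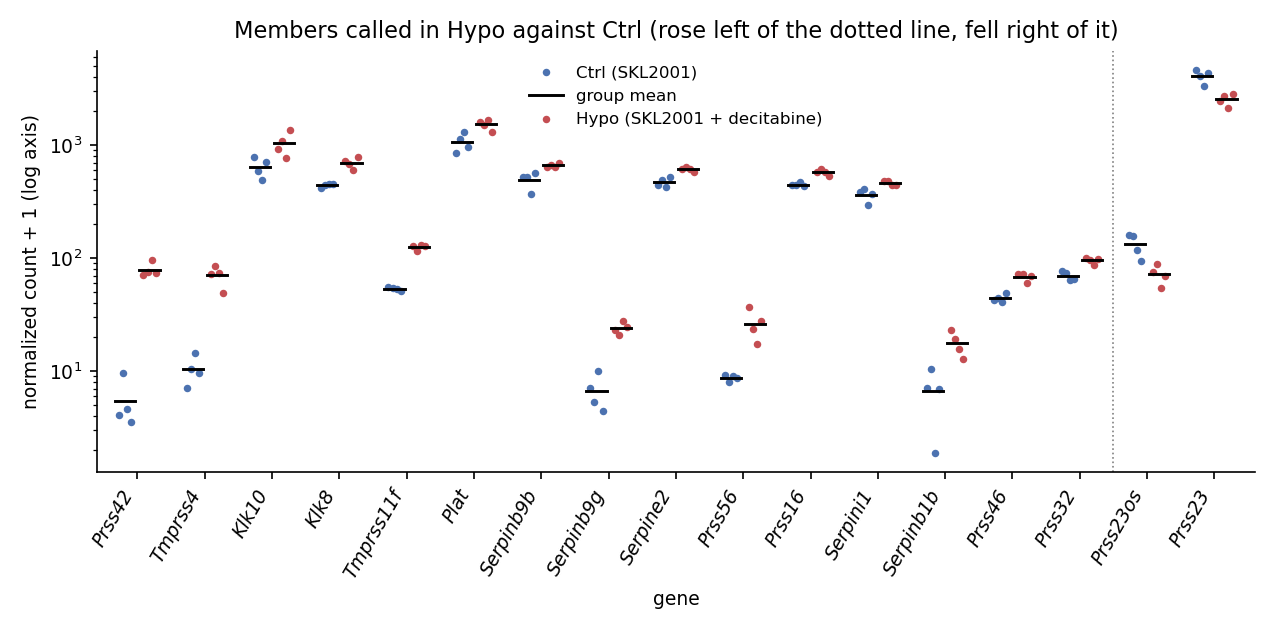
Normalized counts plus 1 (y axis, log scale) of the 17 called members (x axis) in the 4 Ctrl libraries (blue) and the 4 Hypo libraries (red), with group means as black lines; genes left of the dotted line rose in order of the transformed difference, and those right of it fell. Klk10 is the one gene shown whose groups overlap.

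Clade B serpins, which act mostly inside cells, had 3 rises among 12 tested members. All 3 lie in the cluster of 15 Serpinb members on chromosome 13 (32842092 to 34002794). Of these 3, Serpinb9g and Serpinb1b reached the minimum for testing only through their Hypo values. Serpinb9g had 6.15, 4.35, 9.06 and 3.42 in Ctrl and 22.0, 20.1, 26.6 and 23.6 in Hypo. Hypo was higher in every library. The mean was 5.74 ± 2.48 in Ctrl and 23.1 ± 2.77 in Hypo (SD, n = 4 each), 4.02-fold higher on 25 reads over the 4 Ctrl libraries and 95 over the 4 Hypo libraries, with a transformed difference of 0.30 ± 0.04 (SE, limma adjusted p = 5.0e-04).

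Serpinb9b, of the same mouse family related to the granzyme B inhibitor Serpinb9, had 517, 521, 366 and 563 in Ctrl and 635, 669.7, 646 and 696 in Hypo. Hypo lay above Ctrl throughout, and Ctrl replicate 3 was the lowest library. The difference was 0.32 ± 0.08 (SE, 1.35-fold, limma adjusted p = 0.015). Serpinb1b, a relative of the neutrophil elastase inhibitor Serpinb1a, had 6.15, 9.56, 0.906 and 5.98 in Ctrl and 22.0, 18.3, 14.7 and 11.8 in Hypo, low in all but without overlap (difference 0.22 ± 0.06, limma adjusted p = 0.017). Its call was lost without Hypo replicate 2 or 3 (0.057 and 0.052) and under quantile normalization (0.17).

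Serpinb9 itself, which protects cells from granzyme B, was at 1089 ± 149 in Ctrl and 1039 ± 72.4 in Hypo and did not pass (limma adjusted p = 0.70). The genes of this family resemble each other closely, so reads could be split among copies, and values of Serpinb9b, Serpinb9g and Serpinb1b carry that uncertainty. Of the untested genes of this cluster, Serpinb6d also had every Hypo library above every Ctrl library, with 0, 0.869, 0 and 1.71 in Ctrl and 3.47, 3.49, 3.67 and 8.85 in Hypo, and Serpinb9h had no read in Ctrl and 8 reads over the Hypo libraries.

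Serpinb6a, an inhibitor of cathepsin G and the most abundant serpin of its clade, had 11055, 10949.8, 9582 and 10735 in Ctrl and 9548, 9718, 10212 and 9527 in Hypo. Ctrl replicate 3 lay among the Hypo libraries, and the difference of -0.11 ± 0.05 (SE) did not pass (limma adjusted p = 0.15). It passed when that library was left out (−0.16, adjusted p = 0.014), and array weights also gave it a call (0.0072). Serpinb5, maspin, a mammary epithelial serpin that inhibits no known protease, had 2653, 2710.1, 1817 and 2612 in Ctrl and 2369, 2404, 2379 and 2436 in Hypo. Here too Ctrl replicate 3 lay far below its group while the Hypo libraries were nearly equal, and the difference of -0.01 ± 0.10 (limma adjusted p = 0.94) became −0.14 (adjusted p = 0.025) without it. Of the settings tried, only those that left out Ctrl replicate 3 gave Serpinb5 a call.

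Serpinh1, also called HSP47, a chaperone of procollagen in the endoplasmic reticulum, was the most abundant member per kilobase of exon (3756 in Ctrl and 3405 in Hypo). By normalized count, Serpinb6a (mean 10580 in Ctrl and 9751 in Hypo) was above Serpinh1 (9177 and 8319). Serpinh1 had 9113, 8141, 10361 and 9092 in Ctrl and 9080.4, 7783, 7778 and 8634 in Hypo. The groups overlapped (difference -0.14 ± 0.07, limma adjusted p = 0.21). Its clients Col1a1 and Col1a2, listed among the fibroblast markers, rose in these libraries: Col1a1 went from 399 ± 32.3 to 985 ± 203 (SD, n = 4 each) with limma adjusted p = 5.1e-05, and Col1a2 from 32.6 ± 8.55 to 135 ± 42.4 (SD, n = 4 each) with limma adjusted p = 2.3e-04.

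Serpini1, neuroserpin, an inhibitor of Plat, had 383, 406, 295 and 372 in Ctrl and 486, 481, 444 and 448 in Hypo. Its groups did not overlap. The difference was 0.24 ± 0.07 (SE, 1.28-fold, limma adjusted p = 0.022), and the call was lost without Hypo replicate 2 or 3 (0.066 and 0.067), under quantile normalization (0.065) and with the replicate block (0.10). Serpine2 and Serpini1, both inhibitors of the tissue-type activator, therefore rose beside Plat.

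Serpinc1, antithrombin, had 31.8, 26.9, 28.1 and 27.4 in Ctrl and 37.0, 41.0, 38.6 and 44.3 in Hypo. Every Hypo library was higher, yet the difference of 0.12 ± 0.04 (SE) did not pass (limma adjusted p = 0.056). Serpind1, heparin cofactor II, lay under the minimum with 3.07, 0.869, 1.81 and 0.855 in Ctrl and 11.6, 10.5, 16.5 and 15.7 in Hypo, low in Ctrl and higher in each Hypo library (limma adjusted p with no minimum = 4.1e-04). Serpind1 was named for that lack of overlap, so this p-value is no separate support. Serping1, the C1 inhibitor, and Serpinf1, a secreted serpin with anti-angiogenic activity, did not pass (limma adjusted p = 0.59 and 0.41).

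Clade A serpins, which include the major plasma inhibitors made by the liver, were scarce. Of 11 members in a row on chromosome 12 (103728156 to 104269372), 3 were tested and none was called: Serpina3g had 53.9 ± 5.66 in Ctrl and 51.8 ± 21.2 in Hypo, Serpina3i 18.4 ± 11.3 in Ctrl and 26.3 ± 15.8 in Hypo, and the annotated pseudogene Serpina3h 69.2 ± 21.8 in Ctrl and 88.9 ± 30.6 in Hypo (limma adjusted p = 0.82, 0.46 and 0.37). Serpina1a, an α1-antitrypsin gene, had 2.05, 0, 1.81 and 0 in Ctrl and 5.78, 6.11, 6.43 and 7.87 in Hypo, all Hypo libraries being higher (limma adjusted p with no minimum = 0.006). Serpina1a was named for that lack of overlap, so this p-value is no separate support. Serpina9 was the reverse, with 1.02, 1.74, 5.43 and 2.56 in Ctrl and 0, 0.873, 0 and 0.984 in Hypo. It rests on 12 reads in Ctrl and 2 in Hypo. Copies of Serpina1 and Serpina3 are near-identical, so these counts may be split among them.

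Partners of these proteases were counted from lists of other genes. Of 8 tested plasminogen partners 2 rose and 1 fell: the urokinase receptor-associated protein gene Mrc2 was at 27.0 ± 4.41 in Ctrl and 78.1 ± 24.2 in Hypo (limma adjusted p = 0.0017), and Lrp1, which clears protease and serpin complexes, at 13807 ± 2004 in Ctrl and 10411 ± 1078 in Hypo (limma adjusted p = 0.01). Plg itself was not in the table. Of 11 tested partners of matriptase and hepsin 6 rose and 1 fell (Met). Because Hpn, Mst1r and Scnn1g reached the minimum only through their Hypo values, the count was repeated over the 8 with a Ctrl mean of at least 10, of which 3 rose (against 11% of all such genes) and 1 fell. Hpn, hepsin, a transmembrane serine protease outside the name rule, had 8.20, 2.61, 7.25 and 0.855 in Ctrl and 69.4, 45.4, 62.4 and 47.2 in Hypo. It was thus nearly absent in Ctrl and present in every Hypo library (difference 0.66 ± 0.06, limma adjusted p = 1.7e-05). Mst1r, the receptor of macrophage-stimulating protein, was at 7.35 ± 4.24 in Ctrl and 50.6 ± 7.89 in Hypo (limma adjusted p = 3.1e-05).

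Among 9 tested coagulation and complement proteases and receptors 1 rose, F12, at 30.4 ± 12.4 in Ctrl and 61.1 ± 10.5 in Hypo (limma adjusted p = 0.012), while the receptor Procr was at 2879.6 ± 398 in Ctrl and 3342 ± 357 in Hypo and did not pass (limma adjusted p = 0.13). Of 3 tested granule proteases Prtn3 rose (8.65 ± 5.61 in Ctrl and 23.6 ± 11.2 in Hypo, limma adjusted p = 0.045) and Gzmm fell (32.1 ± 3.71 in Ctrl and 16.2 ± 4.03 in Hypo, limma adjusted p = 0.0079), and 17 of the 21 on that list were not in the table. Of 9 tested convertases and HtrA proteases 1 rose and 2 fell, and of those that fell Htra1, a secreted protease, was at 13156 ± 1426 in Ctrl and 10868 ± 581 in Hypo (limma adjusted p = 0.017). Among 6 tested non-serpin inhibitors 2 rose and 1 fell: Tfpi2, a Kunitz-type inhibitor, went from 0.483 ± 0.559 to 27.6 ± 6.01 (SD, n = 4 each) on a Ctrl level at the limit of detection (limma adjusted p = 6.3e-06), and Tfpi, the tissue factor pathway inhibitor, was at 95.7 ± 4.60 in Ctrl and 157 ± 29.3 in Hypo (limma adjusted p = 0.0046). These shares stand beside 14.1% of all tested genes that rose and 8.75% that fell.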

How the data were processed

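Polyadenylated RNA of 8 libraries of 4T1 cells was sequenced with a stranded kit, and groups and replicate numbers were taken from the sample titles. Alignment to the GRCm38 build with STAR, counting and DESeq2 are named in the submitters' processing notes. Whether strand was used in counting is not stated. The authors deposited normalized counts, a signal obtained by dividing reads by size factors, and variance-stabilized values on a log2-like scale. Low values are compressed on that scale. The remaining deposited columns hold the authors' mean expression, log2 fold change with its error, Wald statistic score, p-value and adjusted p-value, and none was used. In every library 100% of the normalized counts were whole multiples of the worth of 1 read within a tolerance of 0.01, so reads could be recovered.

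Genes present in both tables and reaching a mean of 10 normalized counts were tested with limma 3.58.1 in R 4.3.3 (trend, two-sided, Benjamini-Hochberg over 15746 genes). Folds were taken between group means of the normalized counts, with none given where a group held 3 reads or fewer. Read totals of 27486245 to 39388394 per library bound only the counting error, since reads without molecular identifiers are not independent molecules. On recovered reads, edgeR 4.0.16 with TMM called 2175 genes up and 1516 down, and DESeq2 1.42.0 called 2287 and 1881, against 2219 and 1378 with limma. The limma and edgeR fits were tested on simulated data.

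Members, role groups, gene lists and alternatives were chosen with earlier results of these data known. The text names the plasminogen and matriptase genes and Serpinh1. It also names called members without overlap (up to 8 a role), the 2 highest of each role, members under the minimum with a Hypo mean of at least 5 and no overlap, and the 2 list genes with the smallest p. Klk10, Serpina9 and some members that did not pass are named beside these, chosen after their values were seen. A few genes that this rule names are not reported here. Alternatives were other minimums, leaving out libraries, a replicate block, other scales, quantile normalization, array weights, edgeR and DESeq2.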

Additional observations from a re-analysis of the deposited data

Results flagged for a closer look

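In 9 of 78 groups of 4 libraries examined (each named member in Ctrl and in Hypo) 1 library lay far from the other 3 by Dixon's criterion, which chance meets in about 1 in 20 groups. Ctrl replicate 3 was the lowest of its group for Serpinb5 (normalized count 1816.7) and Spint1 (4001), and Hypo replicate 4 was the lowest for Spint1 (3917) and Prss50 (11.9) and the highest for Prss42 (94.6). Ctrl replicate 1 was the lowest for Prss22 (1029.8) and for Tmprss3 (0). For Tmprss3 the 4 Ctrl libraries held 3 reads together, so that flag is a step of 1 read and the share expected by chance need not hold. Hypo replicate 3 was the lowest for Tmprss11f (115), and Hypo replicate 5 the highest for Prss55 (12.8), which lay under the minimum for testing. Prss55 had 0, 2.61, 4.53 and 4.27 in Ctrl and 5.78, 5.24, 4.59 and 12.8 in Hypo. With no minimum it did not pass (limma adjusted p = 0.14).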

How the results depend on the processing

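Of the 17 calls, those of Klk8, Plat, Prss16, Prss23, Prss23os, Prss42, Prss56, Serpinb9g, Tmprss11f and Tmprss4 held in every alternative that tested them except the 6 libraries with shared numbers, where Prss23os lost its call, and no called member changed sign. Members that rose numbered 28 with no minimum, 27 in edgeR with no minimum, 23 with array weights and 9 with the replicate block, against 15. Over all genes, the numbers that rose in these settings were 3309, 3089, 3279 and 1286, against 2219. Members that fell numbered 5 without Ctrl replicate 3 and Hypo replicate 4 together and 1 in the 6 libraries with shared numbers (an alternative added after seeing the data), against 2. Over all genes, 2050 and 820 fell in these settings, against 1378. Leaving out 1 library at a time gave 11 (without Hypo replicate 3) to 18 that rose and 2 to 4 that fell (4 without Ctrl replicate 3). Over all genes, 1803 rose without Hypo replicate 3, and 2743 rose and 2095 fell without Ctrl replicate 3. Same-numbered libraries did not deviate together (correlations of −0.106, −0.214 and −0.17). Differently numbered ones ran from −0.4 to 0.396, a spread too wide for this check to decide whether the numbers pair the libraries. The 6 libraries without the block gave 11 rises against 9 with it, and 1677 against 1286 over all genes. With the block Klk10, Prss32, Prss46, Serpinb9b, Serpine2 and Serpini1 lost their calls, and without it Prss23os, Prss32, Prss46, Serpinb9b and Serpini1 did. Without Hypo replicate 3, Klk10, Prss32, Serpinb1b and Serpini1 lost their calls. Leaving out 1 library gave a call to Klk6 (Ctrl replicate 1 or Hypo replicate 4), to Prss36 and Tmprss6 (Ctrl replicate 3 or Hypo replicate 5), to Serpinb5, Serpinb6a and St14 (Ctrl replicate 3), to Serpinb9e and Tmprss11e (Hypo replicate 4) and to Serpinb1a (Hypo replicate 5). Sign changed in members that did not pass: leaving out single libraries gave −0.15 to 0.00072 for Plaur, −0.065 to 0.012 for Prss22, −0.11 to 0.015 for Serpina3g, −0.14 to 0.037 for Serpinb5 and −0.035 to 0.0097 for Spint2. Quantile normalization gave 0.025 for Serpinb5, 0.035 for Spint1 and 0.055 for Spint2, and the 6 libraries with or without the block gave 0.021 for Serpinb5. The cause was not tested. Depth limits the 42 members under the minimum, whose group totals were at most 69 reads.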

Other observations

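Single genes of the marker lists, those with the smallest p in each, had the following normalized counts. Of 8 epithelial markers Epcam, an adhesion molecule of epithelial cells that matriptase can cleave, rose from 10582 ± 91.3 to 13059 ± 515 (SD, n = 4 each) and Krt7, a keratin of simple epithelia, fell from 36102 ± 3940.1 to 24684 ± 1717 (SD, n = 4 each) (limma adjusted p = 3.6e-04 and 3.8e-04), and the other 6 did not pass. Of 3 tested endothelial markers the cadherin gene Cdh5 rose from 16.2 ± 5.70 to 78.2 ± 10.5 (SD, n = 4 each) and the receptor gene Tie1 from 11.3 ± 4.39 to 29.2 ± 7.24 (SD, n = 4 each) (limma adjusted p = 1.3e-05 and 0.006). Of 4 tested immune cell markers Ptprc rose from 9.26 ± 1.48 to 35.5 ± 5.55 (SD, n = 4 each) and Csf1r from 109.6 ± 4.40 to 279 ± 76.9 (SD, n = 4 each) (limma adjusted p = 1.3e-04 and 6.2e-04), while Cd68 and Lyz2, markers of macrophages, did not pass, Cd68 being at 356 ± 125 in Ctrl and 546 ± 169.7 in Hypo and Lyz2 at 21.0 ± 4.69 in Ctrl and 15.6 ± 5.67 in Hypo (limma adjusted p = 0.086 and 0.32). Among 10 interferon response genes Oasl1 rose from 549.9 ± 111 to 2699.9 ± 333 (SD, n = 4 each) and the chemokine gene Cxcl10 from 119 ± 18.5 to 492 ± 97.9 (SD, n = 4 each) (limma adjusted p = 9.9e-08 and 2.5e-06). Of 8 stress response genes Atf3, a transcription factor gene, rose from 896 ± 179.8 to 1652 ± 398 (SD, n = 4 each) with overlapping groups (limma adjusted p = 0.0038), and the other 7 did not pass.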
